A study of Mus musculus with 2 samples.

Results

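The cells described here were the mouse embryonic stem (ES) cells with at least 10000 unique molecular identifiers (UMIs, tags that mark single captured transcripts), called deep cells below. A barcode was taken as a deep cell when it also had 0.5% to 20% of its UMIs on mitochondrially encoded genes, at least 5% on ribosomal protein (RP) genes, and under 0.3% on *Col1a1*, *Col1a2* and *Col3a1* together. Of 10389 barcodes in 2 libraries, 400 met these limits, 133 in the wild-type (WT) library and 267 in the *Lin28a* knockout (AKO) library. Cells inside the same limits with 2000 to 10000 UMIs, 1229 in WT and 512 in AKO, served as reference cells.

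Both libraries were made with inDrop, a droplet method that tags the transcripts of each cell with a barcode of its own. The cells were ES cells of the line E14, derived from the inner cell mass, grown for 2 days in LIF and 2i medium on gelatin with mouse embryonic fibroblast (MEF) feeder cells. LIF is a cytokine and 2i a pair of kinase inhibitors, and together they hold ES cells in the naive pluripotent state. WT was clone a2.1, which had been transfected but kept intact *Lin28a* and is labelled untreated, and AKO was clone a3.5, in which CRISPR/Cas9 with a guide to exon 2 had disrupted *Lin28a*, the gene of an RNA-binding protein that blocks let-7 microRNA maturation. Each genotype was thus 1 clone and 1 library, so that no test was possible, a difference between WT and AKO cannot be told apart from one between clones or libraries, and every interval given below is an exact 95% interval that covers counting error only.

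A dividing cell doubles its contents between divisions, so its RNA content is highest in G2 and mitosis, the stages after the DNA has been copied. Transcripts of cyclin B, of the chromosome-segregation machinery and of the enzymes that degrade mitotic proteins accumulate in these stages. Replication-dependent histone transcripts accumulate during DNA synthesis (S phase) and are degraded when it ends. Mouse ES cells cycle quickly, with a large part of the cells in S phase. The UMI total of a barcode depends on how much RNA the cell held and on how much of it was captured and sequenced, and these cannot be told apart here.

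The WT library held 12079546 UMIs over 4329 barcodes and the AKO library 10027710 over 6060. Deep cells carried 1632950 WT and 3574628 AKO UMIs, which was 13.5% and 35.6% of all UMIs in the files. They made up 7.17% (interval 6.03 to 8.44) of the 1856 WT cells and 16.5% (14.7 to 18.4) of the 1622 AKO cells kept by the study's own filters (500 UMIs or more, mitochondrial share up to 20%). Of the barcodes with at least 10000 UMIs, 192 in WT and 314 in AKO, the mitochondrial minimum removed 41 WT and 44 AKO barcodes and the collagen limit 19 WT and 3 AKO, with 1 WT barcode failing both. The AKO cells were therefore a larger share of their library, from a file with fewer UMIs in all.

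The values that chose the cells are given as a description. Deep cells had 10015 to 27958 UMIs in WT, with a median of 11377, and 10005 to 28734 in AKO, with a median of 12723. Reference cells had medians of 6091 and 6490.5. In the mean, a deep cell held 2.0 times the UMIs of a reference cell in WT and 2.12 times in AKO. Just outside the limit, between 9000 and 10000 UMIs, stood 83 WT and 60 AKO cells, and just inside it, between 10000 and 11000, 48 and 63. The nearest cells on either side had 9998 and 10015 UMIs in WT, and 9980 and 10005 in AKO, so the limit cut through a continuous range. The median mitochondrial share was 1.48% in deep and 1.48% in reference cells of WT, and 1.99% and 1.88% in AKO.

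Deep cells held more genes than reference cells, but nearly the same number at equal depth. They had a median of 4428 genes per cell in WT and 4694 in AKO, against 2953 and 3020 in reference cells. When every cell was taken at 2000 UMIs, the medians were 1348 genes in deep and 1341 in reference cells of WT, and 1343 and 1315 in AKO. No cell was left out at that depth. Scrublet, a doublet caller, marked 3 of 133 WT and 3 of 267 AKO deep cells (2.26%, interval 0.468 to 6.45, and 1.12%, 0.232 to 3.25), and 16 of 1229 and 7 of 512 reference cells (1.3% and 1.37%).

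The label of ES cells was checked against marker genes. All 6 ES markers (*Pou5f1*, *Sox2*, *Nanog*, *Zfp42*, *Dppa5a* and *Esrrb*) were found in the deep cells of both libraries. Their UMIs summed over the deep cells and scaled to the total as CPM (counts per 1e6 UMIs) came to 3284 (3197 to 3373) in WT and 3559 (3498 to 3622) in AKO, against 3391 and 3625 in reference cells. *Pou5f1*, the transcription factor that defines pluripotent cells, was at 808 CPM in deep and 834 in reference cells of WT, and at 1015 and 1079 in AKO. The ratio of deep over reference was 0.969 (0.912 to 1.03) in WT and 0.940 (0.897 to 0.985) in AKO.

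Markers of other cell types summed to fewer CPM than the ES markers. The 8 feeder fibroblast markers summed to 35.5 CPM in deep and 29.3 in reference cells of WT, and to 34.7 and 33.6 in AKO, where 46 of the 124 UMIs in deep cells lay in 1 cell. The rule limits *Col1a1*, *Col1a2* and *Col3a1* among these 8 and not the other markers. The 6 primitive endoderm markers summed to 7.96 and 10.9 CPM in WT and 11.7 and 15.1 in AKO, in deep and reference cells in that order, with *Gata6* at 0 in WT deep cells. The 5 trophoblast markers gave 11.6 and 9.96 CPM in WT and 14.8 and 11.1 in AKO, and the 4 markers of the primed epiblast 101 and 92.7 CPM in WT and 75 and 69.7 in AKO. Of the primed marker UMIs in deep cells, *Dnmt3b* held 148 of 165 in WT and 213 of 268 in AKO. *Dnmt3b* is also in the list of core pluripotency genes used below. The part of these other transcripts in the results below was not tested.

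Of the 11 markers of the 2-cell-like (2C) state, a rare state of ES cells that resembles the 2-cell embryo, 8 were at 0 in WT and 9 in AKO deep cells. The 2 that AKO deep cells held were *Zfp352*, with 3 UMIs, and *Usp17la*, a ubiquitin protease gene. A total of 7 UMIs of the 11 markers lay in 133 WT deep cells and 19 in 267 AKO deep cells, against 21 in 1229 and 5 in 512 reference cells. *Usp17la* had 5 UMIs in WT and 16 in AKO deep cells, each in a cell of its own, or 3.06 and 4.48 CPM. It had 18 and 2 UMIs in reference cells, or 2.39 and 0.617 CPM, which gives ratios of deep over reference of 1.28 (0.372 to 3.58) in WT and 7.25 (1.71 to 65.0) in AKO. The list of 29 2C genes was at 6.12 CPM (2.94 to 11.3) in deep and 3.45 (2.25 to 5.06) in reference cells of WT, and at 6.43 (4.08 to 9.65) and 2.47 (1.07 to 4.86) in AKO, from 8 to 26 UMIs in each class. At this depth a difference could not be resolved in WT, where the ratio of deep over reference had an interval from 0.764 to 3.8, while in AKO the ratio was 2.61 (1.13 to 6.74). *Usp17la* held 16 of the 23 deep and 2 of the 8 reference UMIs in AKO, and the other 28 genes gave a ratio of 1.06 (0.304 to 3.81), an alternative added after seeing the data. With deep cells from 15000 UMIs the AKO ratio of the whole list had an interval of 0.702 to 8.07.

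*Lin28a* itself was at 130 CPM in WT deep cells, from 212 UMIs, and at 48.4 CPM in AKO deep cells, from 173 UMIs. The gene (ENSMUSG00000050966.9) lies on the minus strand of chromosome 4, from 134003330 to 134018841 in GRCm38. The ratio of AKO over WT was 0.373 (0.303 to 0.458) in deep cells and 0.305 (0.249 to 0.370) in reference cells, in the direction of the labels. inDrop reads the 3′ end of transcripts, away from the edited exon, so this level does not show the edit itself. The ratio of deep over reference was 1.11 (0.947 to 1.29) in WT and 1.35 (1.06 to 1.73) in AKO.

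The main comparison set the CPM of each gene in deep cells against that in the reference cells of the same library, over the 8086 genes that had 100 UMIs or more in WT and in AKO. A gene was counted as lower where the ratio of deep over reference was at most 0.8, and as higher where it was at least the inverse of 0.8, in each case with a counting interval that excluded 1. This is called the fold limit below. By this count 70 genes (0.866%) were higher and 116 (1.43%) were lower in the deep cells of both libraries. In WT alone 3.99% of genes were higher and 4.18% lower, and in AKO alone 8.55% and 4.72%. In opposite directions stood 1 gene (0.0124%) that was higher in WT and lower in AKO and 4 (0.0495%) that were lower in WT and higher in AKO. Of all genes, 67.9% had a ratio between 0.8 and its inverse in both libraries, whatever the interval, and the median log2 ratio was 0.02 in WT and 0.03 in AKO. With median of ratios scaling in place of CPM, the counts were 47 higher and 147 lower.

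**Figure D1:**
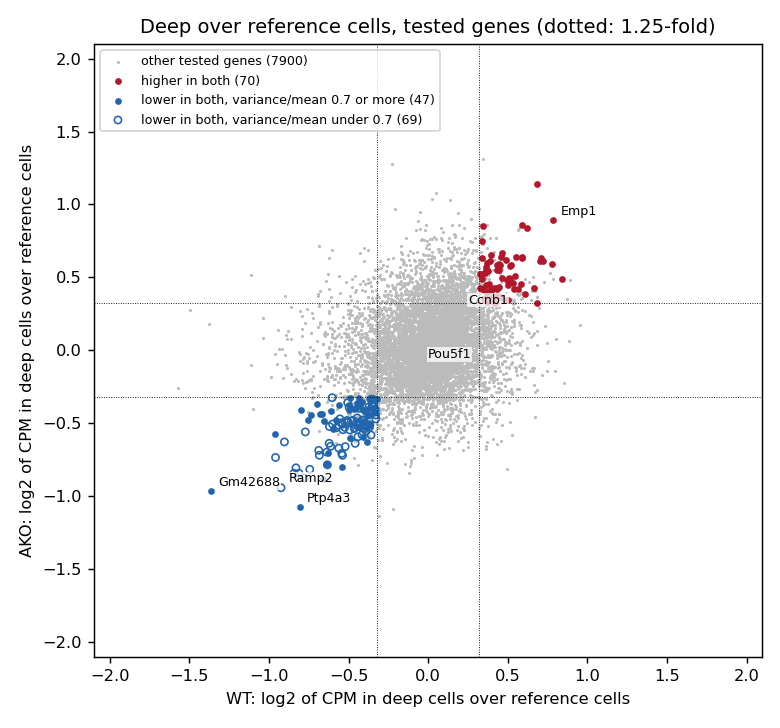
Each point is 1 of 8086 genes, with the log2 ratio of CPM in deep over reference cells of WT on the x axis and of AKO on the y axis. The 70 genes higher in both libraries and the 116 lower in both are coloured, and of the latter the 69 drawn as open points had UMIs spread more evenly over deep cells than random sampling gives.

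The plot of log2 ratios shows a cloud around 0 with the counted genes at its lower left and upper right. Across genes, which are not independent replicates, the log2 ratios of the libraries had a Pearson correlation of 0.256 and a Spearman correlation of 0.248. In UMIs per cell rather than in CPM, 8075 of the 8086 genes were higher in the deep cells of both libraries, and so were 115 of the 116 genes that were lower in CPM. Deep cells were chosen for their UMI total, so more UMIs per cell of most genes followed from the rule. A lower CPM here thus meant fewer transcripts relative to the cell's total.

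Transcripts of G2 and mitosis took a larger share of the deep cells. The 72 genes of the list summed to 12505 CPM (12334 to 12678) in deep and 11238 (11162 to 11314) in reference cells of WT, and to 10777 (10670 to 10886) and 9983 (9875 to 10093) in AKO. The ratio was 1.11 (1.1 to 1.13) in WT and 1.08 (1.06 to 1.1) in AKO. Of the 68 members with enough UMIs, 46 lay above 1 in both libraries and 8 below 1 in both, and the median log2 ratio was 0.15 in WT and 0.1 in AKO, against 0.02 and 0.03 over all genes. Here and below, the share of all genes above or below 1 in both libraries is not given, so such counts are description only. Of the 68, 3 passed the fold limit in both libraries, all of them higher, where 0.866% of all genes were higher.

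These 3 were *Aurkb*, *Nusap1* and *Cenpf*. *Aurkb*, the kinase of the chromosomal passenger complex, was at 53.3 CPM in deep and 37.7 in reference cells of WT, and at 62.7 and 46 in AKO, a ratio of 1.41 (1.1 to 1.8) and 1.36 (1.1 to 1.69). *Nusap1*, which bundles spindle microtubules, was at 64.9 and 45.7 CPM in WT and 53.4 and 38 in AKO, a ratio of 1.42 and 1.41. *Cenpf*, a kinetochore protein, was at 249 and 189 CPM in WT and 148 and 110 in AKO, a ratio of 1.32 (1.18 to 1.47) and 1.34 (1.17 to 1.54).

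*Ube2c* and *Top2a*, the DNA topoisomerase of chromosome condensation, were above 1 in both libraries without passing the limit in both. *Ube2c*, the ubiquitin-conjugating enzyme of the anaphase-promoting complex, was at 547 CPM in deep and 376 in reference cells of WT, a ratio of 1.46 (1.35 to 1.57), and at 535 and 464 CPM in AKO, a ratio of 1.15 (1.08 to 1.24). *Top2a* was at 674 and 566 CPM in WT and 529 and 433 in AKO, with ratios of 1.19 (1.11 to 1.27) and 1.22 (1.14 to 1.31). *Hmgb2*, a chromatin protein and the member with the most UMIs, differed by less than 5% in both libraries, with ratios of 1.03 (0.993 to 1.08) and 1.01 (0.976 to 1.06). At the other end stood *Psrc1*, a spindle protein, with ratios of 0.911 in WT and 0.824 in AKO, and *Rangap1*, with 0.896 and 0.916.

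*Ccnb1* encodes cyclin B1, the cyclin that drives entry into mitosis. It had 368 UMIs in WT and 793 in AKO deep cells. That was 225 CPM against 195 in reference cells of WT and 222 against 182 in AKO, a ratio of 1.15 (1.03 to 1.29) and 1.22 (1.09 to 1.36). Per cell this was 2.77 UMIs against 1.2 in WT and 2.97 against 1.15 in AKO, where the choice of cells by UMI total raises most genes. Its interval lay above 1 in both libraries but its ratio was under the fold limit.

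The promoters of the G2 and mitosis list are given as a description of the genes listed. Their letters are the same whatever the levels in deep cells. CCAAT, the box bound by the NF-Y factor, was present on either strand (as CCAAT or ATTGG) within 250 bases before the start site in 51 of 68 promoters of the list (75%), which covered 62 of its 72 genes, and in 11120 of 32851 promoters of all genes (33.8%). TTTGAA, the core of the cell cycle homology region, was present on either strand (as TTTGAA or TTCAAA) in 25 of 68 (36.8%) and in 5252 of 32851 (16%). Matches of the 2 motifs were counted separately and may overlap. The promoters of *Ccnb1*, the mitotic marker of these cells, and of *Hist1h1b*, an S-phase linker histone gene that RefSeq names *H1f5*, are shown because their ratios of deep over reference lay on opposite sides of 1. Both sequences are from RefSeq on GRCm38.p6, run 5′ to 3′ along the minus strand up to the base before the start, and carry the motif matches in capitals. *Ccnb1* lay at chr13:100786487-100786736 and *Hist1h1b* at chr13:21780626-21780875.
Ccnb1: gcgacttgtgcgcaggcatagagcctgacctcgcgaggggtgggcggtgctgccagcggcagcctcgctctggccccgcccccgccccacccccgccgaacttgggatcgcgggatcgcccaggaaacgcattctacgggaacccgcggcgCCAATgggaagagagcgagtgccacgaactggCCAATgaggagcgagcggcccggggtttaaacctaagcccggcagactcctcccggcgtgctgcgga
Hist1h1b: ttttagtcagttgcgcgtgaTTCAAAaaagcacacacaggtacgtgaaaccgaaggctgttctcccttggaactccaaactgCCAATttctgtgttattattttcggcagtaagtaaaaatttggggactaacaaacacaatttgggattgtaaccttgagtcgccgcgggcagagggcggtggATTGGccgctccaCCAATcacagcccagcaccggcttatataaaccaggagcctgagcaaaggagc
The *Ccnb1* window held 2 CCAAT matches and no TTTGAA match, and the *Hist1h1b* window 3 and 1. A match describes these letters and not binding.

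In sum, UMIs of replication-dependent histone genes, mainly H2A, took a smaller share of the deep cells, with a ratio farther from 1 in WT than in AKO. The 213 AKO deep cells with 10000 to 15000 UMIs were at 7350 CPM, near the 7476 CPM of AKO reference cells with 5000 to 10000. The 27 genes of the list summed to 3876 CPM (3781 to 3972) in deep and 6443 (6386 to 6501) in reference cells of WT, a ratio of 0.602 (0.586 to 0.618), and to 6690 (6606 to 6776) and 7685 (7589 to 7781) CPM in AKO, a ratio of 0.871 (0.855 to 0.886). All 10 members with enough UMIs were below 1 in both libraries. Except for *Hist1h1b* they were H2A copies, so they are not 10 separate results. In WT 10 of 10 passed the fold limit, where 4.18% of all genes were lower, and in AKO 0 of 10, where 4.72% were. Whether the libraries differ in this was not tested. How fully inDrop captures histone transcripts was not tested either.

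The H2A genes held most of these UMIs. *Hist1h2ap* was at 1020 CPM in deep and 1634 in reference cells of WT, a ratio of 0.624 (0.592 to 0.657), and at 1679 and 1988 in AKO, a ratio of 0.845 (0.816 to 0.875). *Hist1h2ad* gave 0.566 (0.534 to 0.6) and 0.865 (0.834 to 0.897). The H2A copies are nearly identical in sequence, so the split of UMIs among them is uncertain and the sum is the firmer value. *Hist1h1b*, which encodes linker histone H1.5, was at 45.9 and 77.5 CPM in WT and 23.5 and 31.5 in AKO, a ratio of 0.592 (0.460 to 0.755) and 0.747 (0.553 to 1.01), so that in AKO its interval included 1.

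**Figure D2:**
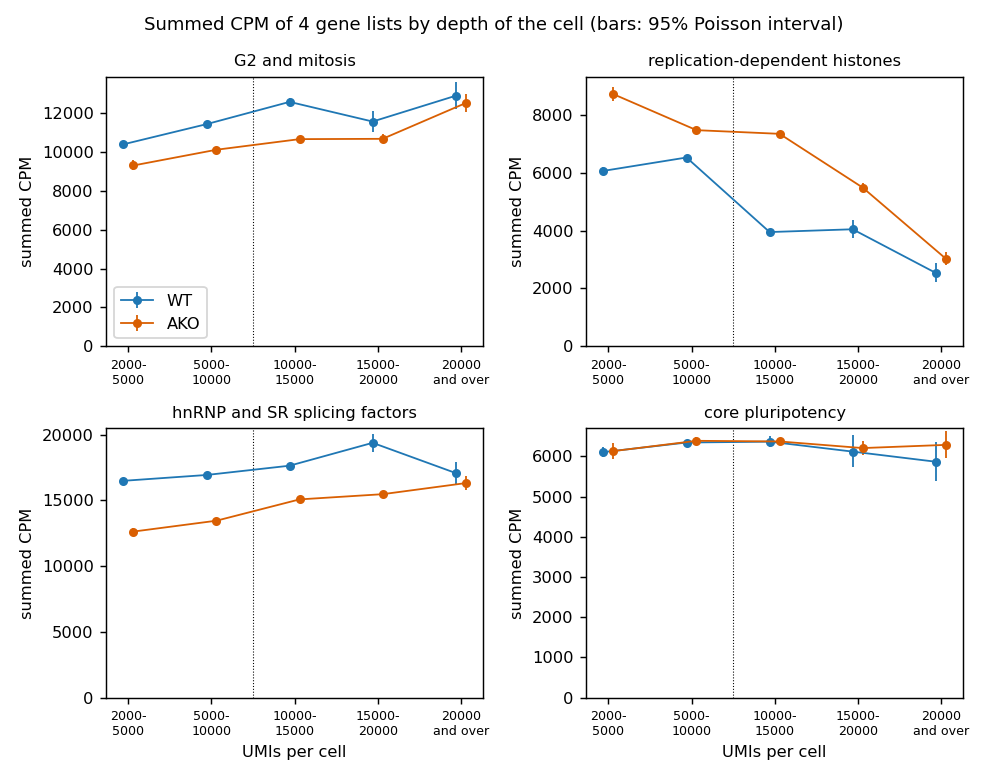
Summed CPM of 4 gene lists (y axis) in cells grouped by UMIs per cell (x axis), in WT and AKO, with exact 95% Poisson intervals. G2 and mitosis transcripts were lowest in the cells with 2000 to 5000 UMIs of both libraries, and histone transcripts were lowest in the cells with 20000 UMIs and over, which number 4 in WT and 9 in AKO.

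The levels by depth show no step at 10000 UMIs in the G2 and mitosis list. In WT it stood at 10398 CPM in cells with 2000 to 5000 UMIs, 11435 at 5000 to 10000 and 12582 at 10000 to 15000. In AKO the same bins gave 9308, 10119 and 10664 CPM. The WT cells just under the limit, at 9000 to 10000 UMIs, were already at 12437 CPM, against 12359 in those just above it, and the AKO cells gave 10371 and 10093. The histone list in WT was likewise at 4150 CPM just under the limit and 4205 just above it. In AKO it was 8511 CPM just under and 8869 just above. By bin the AKO value was 8721 CPM from 2000 to 5000 UMIs, 7476 from 5000 to 10000 and 7350 from 10000 to 15000 (213 cells). It was lower in deeper AKO cells, at 5492 from 15000 to 20000 UMIs (45 cells) and 3033 from 20000 (9 cells). The WT bins from 15000 UMIs held 9 and 4 cells and carry little weight. The intervals of these sums leave out the spread between cells, so whether cells on either side of the limit differ was not tested. Other lists had counting intervals that did not overlap across the limit in AKO. There the splicing factors were at 13626 CPM just under the limit and 15184 just above it, the mitochondrially encoded genes at 17708 and 20964, the RP genes at 101882 and 91275, and the pseudogenes at 144449 and 132702. In WT the splicing factors were at 17736 and 17350 CPM and the mitochondrially encoded genes at 12849 and 12499, in both cases with intervals that overlapped, and the RP genes were at 86847 and 89886 and the pseudogenes at 119148 and 121994, with intervals that did not.

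Histone transcripts varied widely among deep cells. The histone share of a cell's UMIs had a median of 0.279% in WT deep cells, with quartiles of 0.0651% and 0.537% and a highest value of 1.89%, against a median of 0.534% in reference cells. In AKO the medians were 0.531% and 0.615%, and the highest deep cell reached 4.18%. The G2 and mitosis share had medians of 1.254% and 1.07% in deep and reference cells of WT and of 1.01% and 0.949% in AKO. With each cell taken at 2000 UMIs the means were 1.24% and 1.1% in WT and 1.05% and 0.967% in AKO. The ranges of deep and reference cells overlapped for both lists.

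DNA replication genes, which encode the enzymes and loading factors of S phase, stayed level. The 64 genes summed to 8163 CPM in deep and 8190 in reference cells of WT, a ratio of 0.997 (0.978 to 1.02), and to 6993 and 6924 in AKO, a ratio of 1.01 (0.992 to 1.03). Of 60 members measured, 0 passed the limit in both libraries, where 0.866% of all genes were higher and 1.43% lower. *Pcna*, the sliding clamp of replication, was at 729 and 631 CPM in WT, a ratio of 1.16 (1.08 to 1.23), and at 450 and 423 in AKO, a ratio of 1.06 (0.989 to 1.14). *Cdc6*, a licensing factor, gave 0.819 (0.564 to 1.16) and 0.660 (0.464 to 0.935), and *Rrm2*, a subunit of ribonucleotide reductase, 1.12 (0.997 to 1.246) and 1.3 (1.17 to 1.46). *Mki67*, a mark of cycling cells, gave 1.03 (0.907 to 1.18) and 1.06 (0.907 to 1.249). The list of G1 cyclins, kinases and inhibitors gave ratios of 1.02 (0.981 to 1.06) and 0.980 (0.947 to 1.01), and its member *Ccnd2*, a D-type cyclin, 1.6 (1.04 to 2.42) in WT and 1.1 (0.867 to 1.39) in AKO.

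**Figure D3:**
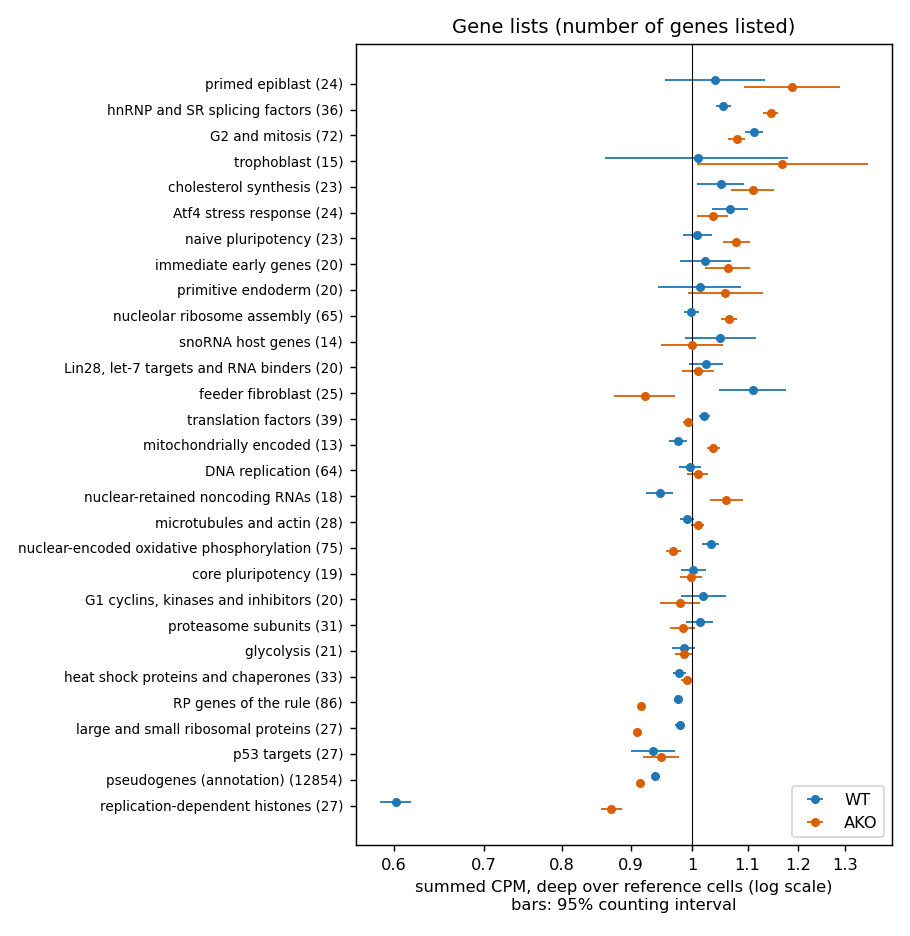
Ratio of summed CPM in deep over reference cells for each gene list (x axis, log scale), in WT and AKO, with exact 95% intervals that cover counting error. Histones lie farthest below 1 in WT, at 0.602, and the G2 and mitosis list lies above 1 in both libraries.

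The core pluripotency genes summed to nearly the same level in deep and reference cells. The 19 core pluripotency genes, *Lin28a* among them, summed to 6316 CPM against 6302 in WT, a ratio of 1.0 (0.981 to 1.02), and to 6333 against 6348 in AKO, a ratio of 0.998 (0.979 to 1.02). Of its 19 members 0 passed the limit in both libraries, a share that 19 genes cannot tell from the 0.866% higher and 1.43% lower of all genes. Of the 19, 10 lay above 1 in both and 5 below 1 in both. The median log2 ratio of the members was 0.06 in WT and 0.15 in AKO, against 0.02 and 0.03 over all genes. *Nanog* gave 1.06 (0.961 to 1.16) and 1.09 (1.0 to 1.19), and *Sox2* 0.824 (0.713 to 0.948) and 0.916 (0.778 to 1.08). *Dppa5a*, which encodes an RNA-binding protein of pluripotent cells, was at 941 CPM in deep and 1061 in reference cells of WT and at 1138 and 1283 in AKO, a ratio of 0.887 in both.

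The naive pluripotency list gave 1.01 (0.984 to 1.04) in WT and 1.08 (1.05 to 1.1) in AKO, with 0 of 22 measured members past the limit in both, which so few genes cannot tell from the 0.866% higher and 1.43% lower of all genes. Of the 22, 8 lay above 1 in both libraries and 3 below 1 in both. Over the list the median log2 ratio was 0.03 in WT and 0.08 in AKO, against 0.02 and 0.03 over all genes. Its members *Zfp42* and *Klf4*, naive transcription factors, gave 1.07 and 1.03 in WT and 1.19 and 1.15 in AKO. At the lower end were *Socs3*, an inhibitor of LIF signalling, with 0.808 (0.565 to 1.13) and 0.762 (0.574 to 1.01), and *Sox15*, a transcription factor, with 1.04 (0.621 to 1.66) and 0.743 (0.501 to 1.1). The primed epiblast list gave 1.04 (0.954 to 1.13) and 1.19 (1.09 to 1.29), and the primitive endoderm list 1.01 (0.944 to 1.09) and 1.06 (0.993 to 1.13). The trophoblast list gave 1.01 (0.861 to 1.18) and 1.17 (1.01 to 1.35). These 3 lists had 6, 5 and 2 measured members, too few for a count of members past the limit to be read.

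Splicing factors lay above 1 in sum in both libraries. The 36 hnRNP and SR proteins, which bind nascent transcripts and select splice sites, summed to 17771 CPM in deep and 16850 in reference cells of WT, a ratio of 1.05 (1.04 to 1.07), and to 15237 and 13319 in AKO, a ratio of 1.14 (1.13 to 1.16). Of the 36, 26 lay above 1 in both libraries and 0 below 1 in both. Over the list the median log2 ratio was 0.05 in WT and 0.16 in AKO, against 0.02 and 0.03 over all genes. None of the 36 passed the fold limit in both, which cannot be told from the 0.866% higher and 1.43% lower of all genes. *Hnrnpk* was at 478 and 397 CPM in WT, a ratio of 1.2 (1.11 to 1.3), and at 381 and 269 in AKO, a ratio of 1.42 (1.3 to 1.54). *Hnrnpa1* gave 1.14 (1.08 to 1.2) and 1.248 (1.19 to 1.31), and *Srsf1* 1.15 (1.05 to 1.26) and 1.33 (1.21 to 1.46). At the lower end were *Srrm1*, with 0.848 (0.770 to 0.931) in WT and 1.02 (0.932 to 1.11) in AKO, and *Hnrnpul2*, with 0.781 (0.615 to 0.982) and 1.17 (0.960 to 1.42).

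Genes of ribosome production differed by subgroup. The RP genes, whose share the rule limits from below, summed to a ratio of 0.976 (0.971 to 0.982) in WT and 0.916 (0.911 to 0.920) in AKO, and the shorter list of 27 large and small subunit proteins to 0.979 and 0.911. *Rpl11* gave 1.06 (0.996 to 1.12) and 0.939 (0.892 to 0.989), and *Rps6* 0.913 (0.865 to 0.962) and 0.936 (0.894 to 0.980). The nucleolar list of ribosome assembly factors gave 0.999 (0.986 to 1.01) in WT and 1.07 (1.05 to 1.08) in AKO. Of its 65 members, 2 were higher in both libraries, *Pno1* and *Utp18*, which act in small subunit assembly, with ratios of 1.28 and 1.28 in WT and 1.33 and 1.44 in AKO. *Imp3*, also of small subunit assembly, was lower, with 0.754 (0.572 to 0.980) and 0.752 (0.617 to 0.916). Over all genes 0.866% were higher and 1.43% lower, and counts this small do not set the list apart from them.

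The most abundant nucleolar transcripts went different ways. *Npm1*, a nucleolar chaperone, was at 4378 CPM in deep and 4044 in reference cells of WT, a ratio of 1.08 (1.06 to 1.11), and at 3213 and 2749 in AKO, a ratio of 1.17 (1.14 to 1.2). *Ncl*, nucleolin, gave 0.886 (0.856 to 0.916) in WT and 1.07 (1.03 to 1.11) in AKO. Translation factors summed to 1.02 (1.01 to 1.03) and 0.992 (0.984 to 1.0), with 0 of 39 past the limit in both libraries, near the 0.866% higher and 1.43% lower of all genes. Among them *Eif4g2* gave 1.23 (1.14 to 1.32) and 1.34 (1.2501 to 1.44), and *Eif4e*, the cap-binding protein, 1.22 (1.07 to 1.39) and 1.37 (1.2 to 1.56).

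Targets of p53, the transcription factor that halts the cycle after DNA damage, were lower in sum. The 27 genes gave 2035 CPM in deep and 2176 in reference cells of WT, a ratio of 0.935 (0.90 to 0.971), and 2349 and 2479 in AKO, a ratio of 0.948 (0.919 to 0.977). Of 21 measured members, 13 lay below 1 in both libraries and 2 above 1 in both. Over the list the median log2 ratio was -0.12 in WT and -0.07 in AKO, against 0.02 and 0.03 over all genes. The 2 that passed the limit were both lower, as were 1.43% of all genes: *Phlda3*, an Akt inhibitor, with 0.601 (0.421 to 0.838) and 0.737 (0.602 to 0.9), and *Plk2*, a kinase of centriole duplication, with 0.616 (0.451 to 0.827) and 0.773 (0.648 to 0.923), where 57 of the 238 *Plk2* UMIs in AKO deep cells lay in 1 cell. *Cdkn1a*, the inhibitor p21, gave 0.809 (0.710 to 0.919) and 0.805 (0.723 to 0.897), and *Trp53* itself 1.03 (0.957 to 1.1) and 1.07 (1.0 to 1.13).

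Metabolic and stress lists were summed in the same way. Cholesterol synthesis summed to 1.05 (1.01 to 1.09) in WT and 1.11 (1.07 to 1.15) in AKO. Its 1 counted member, *Ebp*, a sterol isomerase, was lower in both (1.43% of all genes were lower), with 0.733 (0.544 to 0.971) and 0.780 (0.642 to 0.948), while *Msmo1*, a sterol oxidase, gave 1.13 (0.954 to 1.34) and 1.41 (1.22 to 1.63). Glycolysis gave 0.985 and 0.986, nuclear-encoded oxidative phosphorylation 1.03 and 0.969, and mitochondrially encoded genes, whose share the rule limits, 0.976 and 1.04. Proteasome subunits gave 1.01 and 0.984, and heat shock proteins and chaperones 0.979 and 0.992. The *Atf4* stress response gave 1.07 (1.03 to 1.1) and 1.04 (1.01 to 1.06).

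Of the other lists, microtubules and actin gave 0.991 and 1.01, with *Tpm4*, a tropomyosin, as its member higher in both libraries (0.866% of all genes were higher), at 1.26 (1.01 to 1.57) and 1.4 (1.14 to 1.73). Immediate early genes gave 1.02 (0.979 to 1.07) and 1.06 (1.02 to 1.11), and *Dusp6*, a phosphatase that acts on ERK, was higher in both, with 1.29 (1.01 to 1.62) and 1.47 (1.17 to 1.85). The list of Lin28, let-7 targets and RNA binders gave 1.02 (0.994 to 1.05) and 1.01 (0.984 to 1.04). Host genes of snoRNAs gave 1.05 (0.988 to 1.12) and 1.0 (0.949 to 1.05), nuclear-retained noncoding RNAs 0.946 (0.925 to 0.968) and 1.06 (1.03 to 1.09), and the feeder fibroblast list 1.11 (1.05 to 1.17) and 0.922 (0.875 to 0.972). The last 2 lists lay on opposite sides of 1 in the 2 libraries. The feeder list holds the 3 collagen genes that the rule limits, and 19 WT and 3 AKO barcodes with at least 10000 UMIs exceeded that limit. Its part in the feeder ratios was not tested.

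The genes with the largest ratios in deep cells were of many kinds. *Emp1*, an epithelial membrane protein, was at 41.6 and 24.2 CPM in WT and 24.6 and 13.3 in AKO, a ratio of 1.72 (1.28 to 2.29) and 1.86 (1.27 to 2.74). *Vegfa*, the angiogenic growth factor, gave 1.63 (1.08 to 2.42) and 1.55 (1.05 to 2.33).

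Others were *Exoc2* (an exocyst subunit), *Ubqln2* (a ubiquilin that shuttles proteins to the proteasome), *Srp54c* (a signal recognition particle protein), *Ormdl1* (a regulator of sphingolipid synthesis), *Pdcl* (a phosducin-like chaperone), *Itprid2* and *Ints8* (an Integrator subunit). Their ratios ran from 1.5 to 1.79 in WT and from 1.4 to 1.81 in AKO. *Srp54c* shares 2.66% of its UMIs with copies, of which *Srp54b* gave 1.09 (0.698 to 1.66) and 1.16 (0.8 to 1.7), so its value is uncertain. Most of these genes had fewer than 100 CPM, and their intervals were wide. A gene high in deep cells could reach the minimum of UMIs for this comparison mostly through them. Which genes had the largest ratios thus depends in part on this minimum. In AKO *Vegfa* had 72 UMIs in deep and 42 in reference cells, *Exoc2* 73 and 37, and *Emp1* 88 and 43. *Srp54c*, with 132 UMIs in AKO reference cells, reached the minimum there without its deep cells.

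The genes lower in both libraries were mostly pseudogenes, though these did not have the smallest ratios. The median log2 ratio of the lower pseudogenes was −0.44 in WT and −0.49 in AKO, against −0.60 and −0.52 in the other lower genes. Of the 116 lower genes, 82 (70.7%) were annotated as pseudogenes, against 924 of the 8086 genes compared (11.4%), and 1 of the 70 higher genes was one. In sum the annotated pseudogenes gave 0.939 (0.934 to 0.944) in WT and 0.915 (0.911 to 0.919) in AKO, and those named after RP genes 0.934 (0.925 to 0.943) and 0.881 (0.874 to 0.888). Pseudogene copies are close in sequence to their parent genes, so the division of their UMIs is uncertain.

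Many of these genes were spread over cells more evenly than sampled counts would be. Random sampling of a transcript gives a variance of UMIs per cell about equal to the mean or above it, and the median of variance over mean across the 8086 genes was 1.13 in WT and 1.16 in AKO deep cells. In 149 genes (1.84%) it was under 0.7 in both libraries. These included 69 of the 116 lower genes (59.5%) and 0 of the 70 higher genes, and 120 of the 149 were pseudogenes.

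*Gm2000*, an unnamed gene annotated as protein-coding, shows the pattern. It had 136 UMIs in 131 of 133 WT deep cells, with at most 2 in any cell, and 299 UMIs in 266 of 267 AKO deep cells. Its variance over mean was 0.0514 in WT and 0.142 in AKO. In CPM it was at 83.3 in deep and 149 in reference cells of WT and at 83.6 and 150 in AKO, a ratio of 0.557 (0.463 to 0.666) and 0.558 (0.481 to 0.645). In UMIs per cell it was nearly flat, at 1.02 in deep and 0.916 in reference cells of WT and 1.12 and 0.949 in AKO.

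*Sap18b*, a near copy of *Sap18*, had 126 UMIs in 126 of 133 WT deep cells, 1 in each, and 262 in 258 of 267 AKO deep cells. It was at 77.2 CPM in deep and 137 in reference cells of WT and at 73.3 and 128 in AKO, a ratio of 0.562 (0.463 to 0.677) and 0.572 (0.488 to 0.670). Per cell it held 0.947 and 0.841 UMIs in WT and 0.981 and 0.811 in AKO. *Sap18*, a subunit of a histone deacetylase complex, grew with depth as most genes did and gave CPM ratios of 0.937 (0.857 to 1.02) and 0.903 (0.831 to 0.980). About 1 UMI of *Sap18b* was thus counted in nearly every deep cell, whatever its depth.

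**Figure D4:**
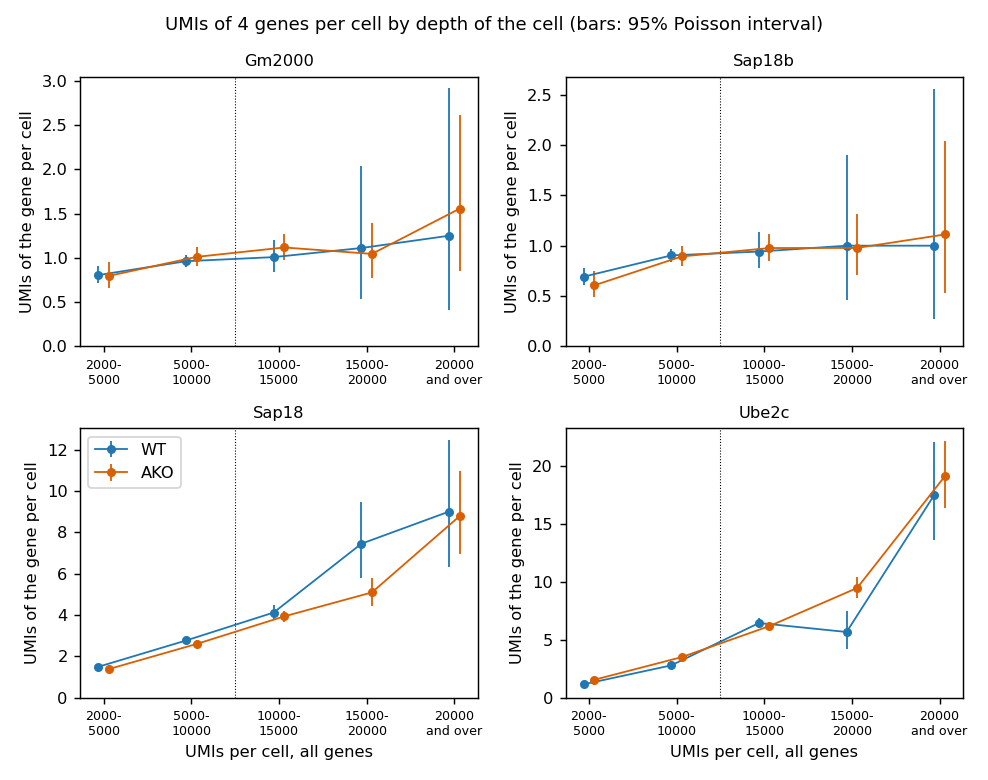
Mean UMIs per cell (y axis) of *Gm2000*, *Sap18b*, *Sap18* and *Ube2c* in cells grouped by UMIs per cell (x axis), in WT and AKO. *Gm2000* and *Sap18b* stay near 1 UMI per cell from 5000 UMIs upward, between 0.893 and 1.56, while *Sap18* and *Ube2c* are several times higher in the bin from 20000 UMIs than in the lowest bin.

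The plot of UMIs per cell shows the same at the ends of the range. In cells with 2000 to 5000 UMIs, *Sap18b* had 0.692 UMIs per cell in WT and 0.605 in AKO, and in cells with 20000 and over 1.0 and 1.11, from 4 UMIs in 4 WT and 10 in 9 AKO cells. *Sap18* went from 1.49 to 9.0 UMIs per cell in WT and from 1.38 to 8.78 in AKO over the same bins, and *Ube2c* from 1.15 to 17.5 and from 1.54 to 19.1. How counting of reads that match several genes bears on the evenly spread genes was not tested. Leaving out the evenly spread genes, a setting chosen after the data had been seen, left 47 lower genes and 70 higher genes.

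Some of the lower genes, among them the evenly spread *Ramp2* and *Gstp1*, had UMIs that the files mark as ambiguous with another gene. *Ramp2*, a receptor-modifying protein, was at 25.1 CPM in deep and 47.7 in reference cells of WT, a ratio of 0.527 (0.372 to 0.729), and at 23.8 and 45.7 in AKO, a ratio of 0.521 (0.394 to 0.684). Of its UMIs 97.2% were marked as ambiguous with *Vps25*, which gave 1.02 (0.857 to 1.2) and 0.902 (0.779 to 1.04). The marked share was 97.4% for *Gm42688* with *Mrpl53*, 62.4% for *Gm20521* with *Pabpn1* and 44.6% for *Gstp1*, a glutathione transferase, with its paralog *Gstp2*. Of the 116 lower genes 8 had at least 20% ambiguous UMIs, of the 70 higher genes 1, and of all 8086 genes 115.

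Among lower genes free of both features, *Ptp4a3*, a phosphatase linked to cell motility, was at 9.19 CPM in deep and 16.1 in reference cells of WT, from 15 and 121 UMIs, and at 18.2 and 38.3 in AKO, a ratio of 0.572 (0.311 to 0.981) and 0.475 (0.346 to 0.647). *Phlda3*, *Plk2*, *Imp3* and *Ebp*, given above, were others. *Gm42418*, a noncoding RNA chosen here after its values were seen because it was the most abundant of the lower genes, was at 10227 CPM in deep and 15087 in reference cells of WT and at 8944 and 11603 in AKO, a ratio of 0.678 (0.667 to 0.689) and 0.771 (0.759 to 0.782).

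The higher and lower genes differed in base composition and length. The median GC content of the longest transcript was 44.5% in the 70 higher genes, 48.8% in all genes compared and 50.4% in the 116 lower genes, and the median length was 3690, 3093 and 702 bases. Of the 70 higher genes 67 were protein-coding. Of the 1369 protein-coding genes with a GC content under 43.5%, 30 were higher and 0 lower, and of the 1369 with one over 54.6%, 4 were higher and 10 lower. The median log2 ratio was 0.21 in the former and −0.07 in the latter genes in AKO, and 0.08 and 0.01 in WT. GC content therefore moved with the ratio of deep over reference, and its part in the gene counts was not tested.

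The last comparison set AKO against WT within the deep cells, over 7189 genes with at least 100 UMIs in the deep cells of both libraries together. At 1.5-fold with an interval that excluded 1, 533 genes (7.41%) were higher and 533 (7.41%) lower in AKO. Among reference cells, with more UMIs and 9810 genes compared, 8.18% were higher and 11.1% lower. With median of ratios scaling the deep cells gave 661 higher and 429 lower, with a median log2 ratio over all genes of 0.06 in place of 0.0048. With 1 library of 1 clone each, these counts compare 2 libraries.

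**Figure D5:**
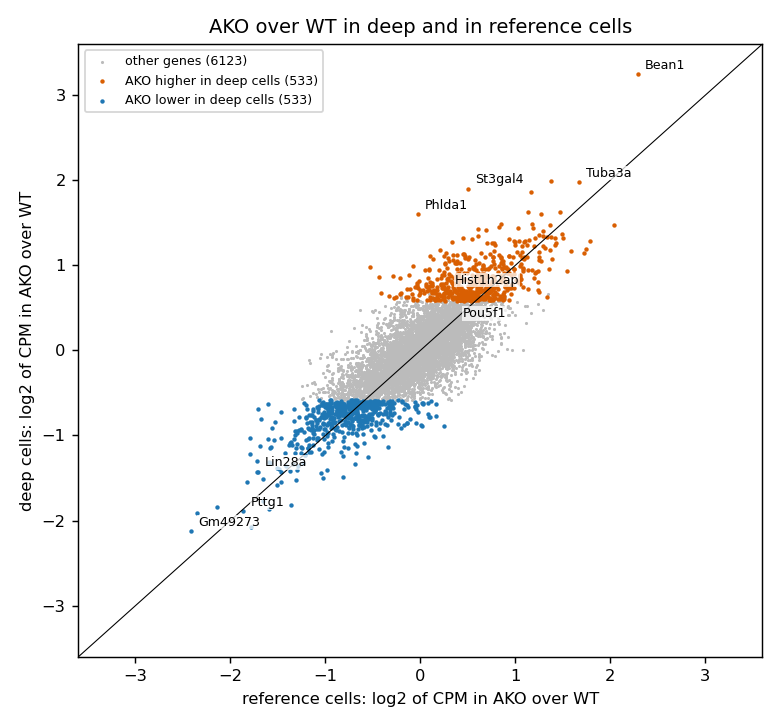
Each point is a gene compared among deep cells, with the log2 ratio of AKO over WT CPM in reference cells on the x axis and in deep cells on the y axis. *Lin28a* lies below 0 in both classes, with ratios of 0.305 and 0.373, and *Phlda1* near 0 in reference cells and above it in deep cells.

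A gene high in AKO could reach 100 UMIs mostly through AKO, as *Bean1*, *Ly6a* and *Phlda1* did, so the order of the genes most above WT depends in part on this minimum. The genes most above WT in AKO deep cells were led by *Bean1*, a membrane protein gene, at 3.06 CPM in WT from 5 UMIs and 29.1 CPM in AKO from 104 UMIs, a ratio of 9.5 (3.94 to 29.9). *Tuba3a*, an alpha tubulin, was at 11.6 and 45.9 CPM, a ratio of 3.94 (2.45 to 6.72), and *Ly6a*, a surface protein of several progenitor cells, at 7.96 and 28.8, a ratio of 3.62 (2.03 to 7.03). In reference cells the ratios were 4.89, 3.18 and 2.23, so these 3 genes were higher in AKO in both classes of cells. *St3gal4*, a sialyltransferase, gave 3.73 (2.04 to 7.47) in deep and 1.41 (0.987 to 2.0) in reference cells, and *Phlda1* 3.03 (1.72 to 5.77) and 0.980 (0.710 to 1.34). *Gm47939*, *Gm5869*, *Gm11512*, *Klkb1* and *Sos2*, a guanine nucleotide exchange factor for Ras, completed the 10 with ratios from 2.8 to 3.97.

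Below WT stood *Pttg1*, the securin that holds sister chromatids together until anaphase, at 80.8 CPM in WT and 21.8 in AKO deep cells, a ratio of 0.270 (0.201 to 0.360), and 0.275 in reference cells. *Hist1h3c*, a histone H3 gene, was at 45.9 and 10.9 CPM, a ratio of 0.238 (0.157 to 0.354). *Bclaf3* and *Efhc2* gave 0.343 (0.275 to 0.427) and 0.333 (0.227 to 0.484). The other 6 were *Gm49273*, *Gm17132*, *Gm26870*, *Gm37324*, *Gm48415* and *Gm37899*, with ratios from 0.230 to 0.294. *Pttg1* was thus lower in AKO while *Ccnb1* was not, with an AKO over WT ratio of 0.984 (0.869 to 1.12) in deep cells.

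By list, the G2 and mitosis genes summed to an AKO over WT ratio of 0.862 (0.847 to 0.877) in deep and 0.888 (0.877 to 0.9) in reference cells, with 1 of 68 members counted as higher and 11 as lower in deep cells, against 7.41% higher and 7.41% lower over all genes. The histone list was at 1.73 (1.68 to 1.77) in deep and 1.19 (1.17 to 1.21) in reference cells, with 9 of 11 members higher and 2 lower in deep cells. Most measured members are nearly identical H2A copies, so this sum and count are mainly of H2A. *Hist1h1b* had a lower CPM in AKO than in WT deep cells, and so had *Hist1h3c*, given above, which reached the minimum mostly through WT. Core pluripotency was at 1.0 (0.980 to 1.03) in deep cells, although 1 of its 19 members was counted as higher and 6 as lower. The targeted gene *Lin28a* is a member of this list and among the 6, with 0.373. *Sox2*, also among them, gave 0.597 (0.502 to 0.712). *Pou5f1* gave 1.26 (1.18 to 1.34). Nucleolar ribosome assembly was at 0.8 (0.788 to 0.812), with 9 of 65 members lower and 0 higher. Mitochondrially encoded genes were at 1.57 (1.54 to 1.59) and nuclear-retained noncoding RNAs at 0.564 (0.548 to 0.580), with *Malat1*, the most abundant of them, at 3830 CPM in WT and 1797 in AKO. In reference cells the last 3 lists gave 0.750, 1.47 and 0.503.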

How the data were processed

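Single-cell RNA-seq of 1 WT and 1 AKO inDrop library was analysed. The authors made UMI counts per gene and barcode with a published inDrop pipeline and deposited them as raw counts without normalization. The submitters' processing notes name mm10 and Seurat 2.3.4, and the aligner and annotation release are not given in the sources used here. The files list UMIs per gene that are ambiguous with other genes (63462 in WT, 58924 in AKO, summed over genes), and how they were counted is not given in the sources used here. Barcodes are only numbered in the files, so barcodes shared between libraries were not analysed here. Names came from GENCODE M21 (GRCm38), in which 54079 of 54146 identifiers were found when the version was ignored and 52480 when it was not.

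Deep and reference cells were chosen by the limits given in the report, and the members and lists were chosen with earlier results of these data known. UMIs were summed per class and library and scaled to CPM. Genes needed 100 UMIs over both classes in each library. Ratios have exact intervals at 95% for a ratio of counts (a Clopper-Pearson interval of the split), levels exact Poisson and shares exact binomial intervals, all of counting error only. Genes per cell and list shares were also taken at 2000 UMIs per cell, and doublets were called per library with Scrublet.

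Named genes were *Lin28a*, *Pou5f1*, *Ccnb1*, *Pcna*, *Mki67*, *Rpl11* and *Rps6*, the 10 largest and 10 smallest ratios among genes past the limits in each comparison, and in each of 28 lists the 3 members with the most UMIs in deep cells and the 2 largest and 2 smallest ratios. Cell type markers, counted genes of a list and the partners of genes with ambiguous UMIs were named too. A gene that this rule names is not reported here. Outdated symbols in the lists were replaced and wrong entries dropped once the files could be read. The pseudogene and RP classes, the limit of 0.7 on variance over mean and the look at ambiguous UMIs were chosen after the values had been seen. In simulated libraries 200 genes changed 2-fold, of which 200 were recovered among 8047 genes, with 6 unchanged genes called. That change was larger than the fold limit, so the recovery of genes near the limit was not tested. Alternatives were other UMI, mitochondrial, count and fold limits, doublet removal, other scalings and equal weight per cell. Promoters are RefSeq's 250 bases before each start site. Computations used scipy 1.17.1 and numpy 2.4.6 in Python 3.11.15, with tables in pandas 2.3.3, Scrublet from scanpy 1.11.5 and plots in matplotlib 3.10.9.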

Additional observations from a re-analysis of the deposited data

Results flagged for a closer look

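Of the 1 and 4 genes past the fold limit in opposite directions in WT and AKO, *Phlda1* was the one that the rule for named genes chose. For 4 of the gene lists the summed ratio of deep over reference lay on opposite sides of 1 in WT and AKO, with intervals that excluded 1 in both. In each case the difference between the libraries was not tested. *Phlda1*, a pleckstrin homology-like domain gene, was at 8.57 CPM in deep and 18.6 in reference cells of WT, a ratio of 0.461 (0.246 to 0.8), and at 26.0 and 18.2 CPM in AKO, a ratio of 1.43 (1.02 to 2.02). The feeder fibroblast list, which holds the 3 collagen genes that the rule limits, gave 1.11 (1.05 to 1.17) in WT and 0.922 (0.875 to 0.972) in AKO. In deep cells *Col1a1* held 32 of the list's 1489 UMIs in WT and 79 of 2879 in AKO, and *Col1a2* and *Col3a1* held fewer. The part of the collagen limit in these ratios was not tested. The mitochondrially encoded list gave 0.976 (0.961 to 0.991) in WT and 1.04 (1.03 to 1.05) in AKO, although its median member was below 1 in both, at a log2 ratio of −0.03 and −0.02. Nuclear-encoded oxidative phosphorylation gave 1.03 (1.02 to 1.05) in WT and 0.969 (0.957 to 0.981) in AKO. Nuclear-retained noncoding RNAs gave 0.946 (0.925 to 0.968) in WT, where the median member was above 1 at a log2 ratio of 0.03, and 1.06 (1.03 to 1.09) in AKO.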

How the results depend on the processing

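The lists of G2 and mitosis, histones, splicing factors, pseudogenes and 2C genes were summed again under the alternatives, and none of them changed direction, while the other lists were summed once only. The share of kept cells that were deep was 18.3% in WT and 24.4% in AKO with a limit of 8000 UMIs, 2.48% and 9.56% with 12000, 0.7004% and 3.33% with 15000, and 9.32% and 19.2% without the lower mitochondrial limit. Of the 116 genes lower in both libraries, 72 remained with reference cells of 5000 to 10000 UMIs and 47 without the evenly spread genes, the last chosen after seeing the data. The higher genes numbered 16 with a minimum of 500 UMIs and 10 at 1.5-fold, where 19 were lower. With deep cells from 15000 UMIs, 24 of the 70 higher and 64 of the 116 lower genes were found again. The G2 and mitosis ratio was 1.08 in WT and 1.11 in AKO with deep cells from 15000 UMIs, and in WT 1.09 with the narrower reference, 1.08 with median of ratios scaling and 1.14 with each cell weighted equally. The histone ratio was 0.537 in WT and 0.646 in AKO from 15000 UMIs, 0.585 in WT with median of ratios scaling, and in AKO 0.895 with the narrower reference and 0.893 with equal weight. The splicing factor ratio was 1.1 in WT and 1.18 in AKO from 15000 UMIs, and 1.03 and 1.13 with median of ratios scaling. Genes higher and lower in AKO among deep cells numbered 184 and 205 from 15000 UMIs, 1005 and 812 with a minimum of 20 UMIs, 93 and 130 with a minimum of 500, and 114 and 91 at 2-fold. With median of ratios scaling they numbered 661 and 429. The causes were not tested. No paired analysis was possible because there was 1 library per genotype and no replicate numbers, and for the same reason no replicate could be left out. Depth limits the WT bins from 15000 UMIs and genes under about 100 UMIs.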
